A study of Homo sapiens with 12 samples.

Results

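The solute carrier (SLC) genes encode membrane proteins that move small molecules across the plasma membrane and the membranes of organelles. Genes were taken as members where the symbol in the deposited table had the standard form of a solute carrier name, apart from the mitochondrial carriers of family SLC25. This gave 177 of the 13869 genes in the table, and 40 SLC25 genes were left out. All 177 members passed the filter on low counts, and 13498 genes were tested in all. The table lists only genes with an RPKM (read density scaled to gene length and library size) above 1 in at least 1 library, so members below that level in every library were not analysed here.

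Poly(A) RNA was sequenced from a pair of human ovarian cancer cell lines, MDAH-2774, labelled endometrioid ovarian cancer, and OVSAHO, labelled high grade serous ovarian cancer. Both carried the genotype label WT. Cells of each line received 500 nM lestaurtinib or the DMSO vehicle for 24 h, in RPMI without phenol red and with 10% serum, from plating at 70% confluence. There were 3 libraries in each of the 4 groups, and the stated question was which genes lestaurtinib regulates. Lestaurtinib is an indolocarbazole inhibitor of several kinases, FLT3 and JAK2 among them. Each subtype is represented by a single cell line, and nothing in the labels says that replicates were separate cultures, so the p-values speak of library-to-library spread, possibly technical.

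Solute carriers are grouped by what they move: nutrients such as glucose and amino acids, metabolic acids such as lactate, metals, inorganic ions, vitamins, nucleosides and nucleotide sugars. Some work as heterodimers. SLC3A2, the heavy chain known as CD98, brings the light chains of family SLC7 to the cell surface, among them SLC7A5, which imports large neutral amino acids in exchange for intracellular glutamine. Tumour cells are known to depend on SLC7A5, on the glucose transporter SLC2A1 and on the lactate exporters of family SLC16.

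Total counts ran from 32875940 to 55941446 per library. Of 11 ovarian epithelial markers, 10 were listed and MUC16 was not. The lines differed in FOLR1, at 0 CPM (read counts scaled to TMM-adjusted library size) in vehicle MDAH-2774 and 147 ± 6.55 CPM in vehicle OVSAHO, and in MSLN, at 0.0767 ± 0.133 and 90.8 ± 10.4 CPM. Other epithelial markers had the reverse order, KRT19 at 303 ± 22.6 and 5.17 ± 1.92 CPM and EPCAM at 89.7 ± 6.69 and 39.5 ± 2.49 CPM. PAX8, a defining factor of the tissue, was at 305 ± 8.05 and 274 ± 19.4 CPM. Of 11 markers of other cell types 4 were listed, with summed levels of 11.3 to 35.2 CPM over the 12 libraries, and PTPRC, PECAM1 and COL1A2 were among those not listed. All errors on levels are SDs with n = 3, and errors on log2 values are SEs. In bulk RNA, fewer cells of a type and less RNA per cell cannot be told apart.

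The question of the baseline comparison was which carriers each line used before drug. The lines held different sets of amino acid, glucose and lactate carriers: MDAH-2774 was high in the CD98 heterodimers, in SLC1A5 and in the lactate exporter SLC16A3, while OVSAHO was high in SLC7A2, SLC1A3, SLC8A1 and SLC38A2. In vehicle cells 145 of the 177 members (81.9%) passed an adjusted p of 0.05, 66 higher and 79 lower in OVSAHO. Over all genes tested 77.4% passed, 38.6% higher and 38.9% lower, so the share of members was near that of the table. With a log2 difference of at least 1 as well, 41 members were higher in OVSAHO and 47 lower, 88 in all, against 20.2%, 19.7% and in all 39.9% of the genes tested. The libraries of the lines did not overlap for 142 members (80.2%), near the 77.5% of all genes tested. The median log2 difference was -0.19 over members and -0.02 over all genes. A mean RPKM of at least 1 in vehicle cells was reached in both lines by 122 members, in MDAH-2774 alone by 27, in OVSAHO alone by 14 and in neither by 14.

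On the RPKM scale, which allows levels of different genes to be compared, the highest members in vehicle MDAH-2774 were SLC7A5 at 220, SLC3A2 at 133 and the glutamine carrier SLC1A5 at 106. Next came the zinc transporters SLC39A7 and SLC39A1 at 86.7 and 78.3. In vehicle OVSAHO the highest was SLC38A2, a sodium-coupled neutral amino acid transporter, at 85.9, followed by SLC39A7 at 80.0, the sugar carrier SLC50A1 at 65.4 and SLC39A14 at 62.7. SLC39A7, SLC39A1, SLC39A14 and SLC50A1 were thus among the highest carriers in both lines.

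**Figure D1:**
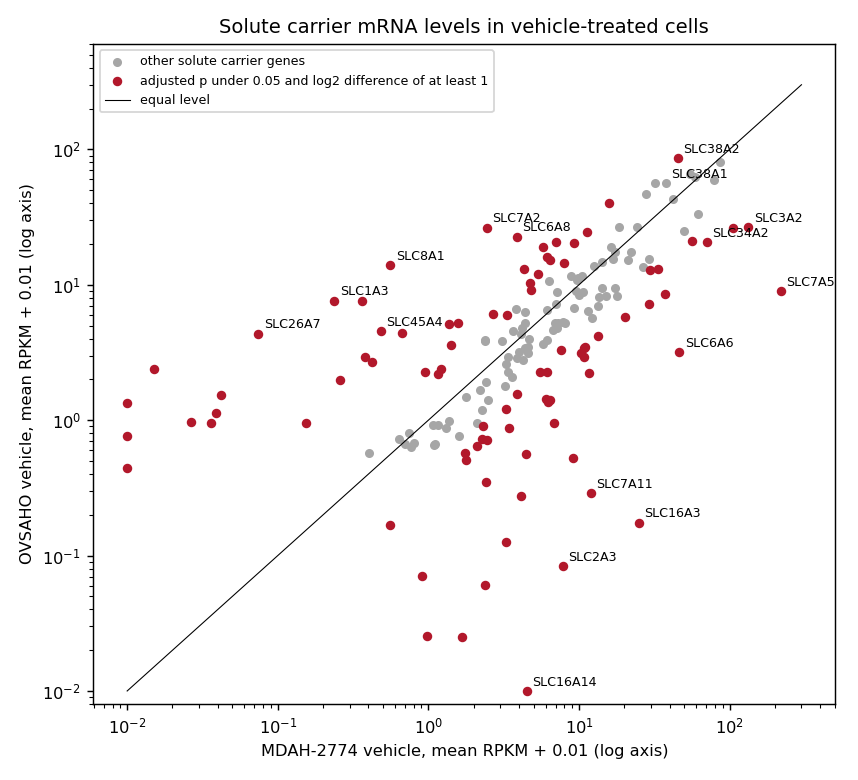
Mean RPKM of each of the 177 solute carrier genes in vehicle-treated MDAH-2774 (x axis) and OVSAHO (y axis), both on log axes with 0.01 added and n = 3 libraries per mean. Red points passed an adjusted p of 0.05 with a log2 difference of at least 1, 41 above the line of equal level and 47 below it; SLC7A5 lies far to the right and SLC7A2, SLC8A1 and SLC1A3 at the upper left.

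Among the 29 amino acid and peptide carriers, 8 were higher in OVSAHO and 15 lower, against 38.6% and 38.9% of all genes tested. SLC7A5 (chromosome 16, 87830023 to 87869497, hg38) had 856, 983 and 1063 CPM in replicates 1 to 3 of vehicle MDAH-2774 and 46.3, 39.3 and 45.1 CPM in vehicle OVSAHO. The log2 difference was -4.47 ± 0.09 (adjusted p = 6.8e-17), and every MDAH-2774 library lay far above every OVSAHO library. Its partner SLC3A2 (chromosome 11, 62856012 to 62888883) had 369 ± 12.8 CPM in MDAH-2774 and 82.3 ± 9.39 CPM in OVSAHO, a log2 difference of -2.17 ± 0.08. SLC7A11 (chromosome 4, 138164094 to 138312660), the other CD98-bound chain of note here, which imports cystine in exchange for glutamate, had 138, 139 and 132 CPM in MDAH-2774 and 2.23, 2.49 and 5.82 CPM in OVSAHO. Its log2 difference was -5.31 ± 0.22 (adjusted p = 4.5e-13). SLC1A5 was lower in OVSAHO by a log2 value of -1.87 ± 0.07, and the neutral amino acid carrier SLC6A15 by -2.24 ± 0.08.

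Other amino acid carriers were higher in OVSAHO. SLC7A2, which takes up arginine, lysine and ornithine without a heavy chain, had 212, 214 and 240 CPM in vehicle OVSAHO and 16.3, 21.1 and 17.6 CPM in vehicle MDAH-2774. The other cationic amino acid carrier, SLC7A1 (chromosome 13, 29509410 to 29595688), had the reverse order, with 57.1 ± 6.55 CPM in OVSAHO and 205 ± 9.16 CPM in MDAH-2774. The log2 differences were 3.6 ± 0.08 for SLC7A2 and -1.85 ± 0.08 for SLC7A1. SLC1A3 (chromosome 5, 36606355 to 36688334), a glutamate and aspartate importer best known from glia, had 40.8 ± 6.51 CPM in OVSAHO and 1.10 ± 0.251 CPM in MDAH-2774, a log2 difference of 5.21 ± 0.17. SLC7A8 (chromosome 14, 23125295 to 23183660), another light chain for large neutral amino acids, was at 0 in all vehicle MDAH-2774 libraries and at 7.98, 5.99 and 6.59 CPM in vehicle OVSAHO, at least 299-fold higher against a floor of 3 counts over the group. SLC38A2 and SLC38A1, a pair of sodium-coupled glutamine carriers, were higher in OVSAHO by 1.07 ± 0.06 and 0.73 ± 0.05 on the log2 scale.

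The promoter windows of the CD98 heterodimer and of SLC7A1 are shown as examples, the former because both of its chains rose in MDAH-2774 and the latter because it rose in OVSAHO, and their motif matches were known when they were chosen. The windows are RefSeq sequence on GRCh38.p14, from 250 bases before to 50 bases after the annotated start, 5′ to 3′ on the strand of the gene. SLC7A5 is at chr16:87869458-87869757 on the minus strand, SLC3A2 at chr11:62881449-62881748 on the plus strand (the window with the most matches of the 3 windows of the gene) and SLC7A1 at chr13:29595639-29595938 on the minus strand. Capitals mark matches to the motifs searched.
SLC7A5: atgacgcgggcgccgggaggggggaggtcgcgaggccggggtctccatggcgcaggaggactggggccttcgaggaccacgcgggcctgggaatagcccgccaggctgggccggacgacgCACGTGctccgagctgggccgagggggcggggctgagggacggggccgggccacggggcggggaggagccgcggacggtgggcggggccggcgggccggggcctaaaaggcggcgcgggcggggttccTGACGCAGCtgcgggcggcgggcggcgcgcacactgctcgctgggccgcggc
SLC3A2: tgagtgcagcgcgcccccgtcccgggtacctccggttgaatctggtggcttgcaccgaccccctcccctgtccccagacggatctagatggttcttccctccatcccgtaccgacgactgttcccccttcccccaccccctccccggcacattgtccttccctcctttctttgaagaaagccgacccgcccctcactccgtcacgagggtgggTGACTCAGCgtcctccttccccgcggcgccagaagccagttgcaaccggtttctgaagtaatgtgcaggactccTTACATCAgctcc
SLC7A1: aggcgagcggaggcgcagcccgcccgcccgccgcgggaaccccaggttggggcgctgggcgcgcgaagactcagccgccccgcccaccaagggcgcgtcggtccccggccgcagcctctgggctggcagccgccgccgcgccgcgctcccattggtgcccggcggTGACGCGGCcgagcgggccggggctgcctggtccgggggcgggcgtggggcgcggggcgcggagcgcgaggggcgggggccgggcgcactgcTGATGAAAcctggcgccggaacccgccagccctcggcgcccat
The motifs, searched on both strands, were ACGTG (core of the hypoxia response element), TGATGNAA (core of the amino acid response element), TGACNNNGC (core of the antioxidant response element) and TGACGTCA (cyclic AMP response element). The SLC7A5 window held ACGTG on both strands, as CACGTG, and TGACGCAGC. The SLC3A2 window held TGACTCAGC and, on the minus strand, a match to the amino acid response core printed as TTACATCA. The SLC7A1 window held TGACGCGGC and TGATGAAA. Matches of different motifs did not overlap in these windows. Of 35116 promoter windows in the RefSeq table, ACGTG was in 21.4%, TGATGNAA in 3.6%, TGACNNNGC in 13.3% and TGACGTCA in 1.8%. Of the 177 members 143 were matched, with 222 windows, and the shares in those windows were 26.6%, 4.1%, 15.3% and 1.8%. A match describes the letters only.

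Glucose and lactate carriers also separated the lines. SLC2A1 (chromosome 1, 42925375 to 42959176), the widespread basal glucose importer, had 198 ± 10.4 CPM in vehicle MDAH-2774 and 82.0 ± 2.61 CPM in vehicle OVSAHO. SLC2A3, a high-affinity glucose importer, had 30.5, 27.3 and 30.6 CPM in MDAH-2774 and 0, 0.0731 and 0.843 CPM in OVSAHO, where only replicate 3 had more than a trace. SLC2A12, a glucose carrier of another branch of the family, was higher in OVSAHO by 3.15 ± 0.20 on the log2 scale. SLC16A3 (chromosome 17, 82228406 to 82239499), the lactate exporter of glycolytic cells, had 91.2, 107 and 116 CPM in MDAH-2774 and 0.812, 0.707 and 0.790 CPM in OVSAHO, a log2 difference of -7.08 ± 0.15. SLC16A7, a high-affinity monocarboxylate carrier, was also nearly confined to MDAH-2774 among these vehicle libraries, at 19.0 to 23.8 CPM against 0.0975 to 0.377 CPM. SLC16A1, the general lactate and pyruvate carrier, was at similar levels, with 42.0 RPKM in MDAH-2774 and 43.1 RPKM in OVSAHO, although its log2 difference of 0.19 ± 0.06 passed the test (adjusted p = 0.0075). Of 14 sugar carriers 4 were higher and 8 lower in OVSAHO, against 38.6% and 38.9% of all genes tested.

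SLC16A3 is shown because it had the second largest baseline deficit in OVSAHO among members and fell with drug in MDAH-2774. Its window is on GRCh38.p14 at chr17:82228792-82229091 on the plus strand. Of the 5 windows of the gene, this window was printed because it had the most matches to the motifs searched. Capitals mark ACGTG, which it held at 2 positions.
SLC16A3: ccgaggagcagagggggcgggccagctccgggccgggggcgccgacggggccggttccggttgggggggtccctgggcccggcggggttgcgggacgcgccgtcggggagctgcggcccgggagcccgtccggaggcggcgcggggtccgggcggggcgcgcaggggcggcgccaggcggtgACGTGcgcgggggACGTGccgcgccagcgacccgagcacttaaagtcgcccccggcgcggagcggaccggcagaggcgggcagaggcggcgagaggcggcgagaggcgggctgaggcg

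Among carriers of ions, osmolytes and metals, SLC8A1 (chromosome 2, 40112146 to 40512486), the plasma membrane sodium-calcium exchanger, had 119, 123 and 126 CPM in vehicle OVSAHO and 5.26, 3.86 and 3.98 CPM in vehicle MDAH-2774, a log2 difference of 4.80 ± 0.11. The anion exchanger SLC26A7 (chromosome 8, 91209494 to 91398155) had 28.8, 28.2 and 24.9 CPM in OVSAHO and at most 0.669 CPM in MDAH-2774. The taurine carrier SLC6A6 had the reverse order, at 24.4 ± 1.49 CPM in OVSAHO and 321 ± 12.8 CPM in MDAH-2774, and the creatine carrier SLC6A8 was higher in OVSAHO by 2.72 ± 0.09. All 13 carriers of bicarbonate, chloride and other anions differed, against 77.4% of all genes tested, with 8 higher and 5 lower in OVSAHO. Of 25 metal carriers 10 were higher and 11 lower, against 38.6% and 38.9% of all genes. Only 3 and 2 of the metal carriers differed by a log2 value of at least 1, against 20.2% and 19.7% of all genes. SLC39A4, the intestinal zinc importer, was among the higher at 2.04 ± 0.17, and the magnesium carrier SLC41A2 among the lower at -2.03 ± 0.12. The phosphate importers SLC20A1 and SLC34A2 were both lower in OVSAHO, by -1.99 ± 0.10 and -1.63 ± 0.06. The largest difference among members was SLC16A14, a family SLC16 member of unsettled substrate, at 21.5 ± 3.22 CPM in MDAH-2774 and 0 in all vehicle OVSAHO libraries, at least 937-fold lower. The direction of the 87 baseline differences of named members held under every alternative tried, and 84 of them also kept their call.

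In MDAH-2774, lestaurtinib raised both chains of the CD98 heterodimer, the haem carrier SLC48A1 and the zinc importer SLC39A10. The drug lowered SLC16A3, SLC20A1, SLC6A6 and SLC39A14. The zinc exporters SLC30A1 and SLC30A4 also rose, but their calls were lost on leaving out single libraries. Of the 177 members 33 (18.6%) passed an adjusted p of 0.05, 20 higher and 13 lower. Over all genes tested 17.1% passed, 8.08% higher and 9.05% lower. The median log2 change was 0.08 over members and 0.01 over all genes. Leaving out treated replicate 1 left 19 members called, and leaving out treated replicate 2 also left 19, each time 12 higher and 7 lower. With upper-quartile scaling 31 members passed, 22 higher and 9 lower. In 3 of the rises the log2 change was 1 or more, SLC1A3 and a pair with no counts in vehicle cells, SLC7A8 and SLC22A31. Over all genes 1.44% rose and 0.667% fell by as much. Treated and vehicle libraries did not overlap for 68 members (38.4%), near the 38.8% of all genes.

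Marker genes also moved with the drug. The mesenchymal markers VIM, CDH2 and FN1 fell in MDAH-2774 by 0.52 ± 0.04, 0.62 ± 0.06 and 1.10 ± 0.10 on the log2 scale, and in OVSAHO by 0.61 ± 0.04, 1.02 ± 0.06 and 1.16 ± 0.17. Of the 10 epithelial markers 2 rose and 5 fell in MDAH-2774, and 4 rose and 2 fell in OVSAHO. Their summed level went from 2307 to 2560 CPM with vehicle to 1997 to 2053 CPM with drug in MDAH-2774, and from 1973 to 2173 CPM to 2980 to 3164 CPM in OVSAHO. PAX8 fell by 0.73 ± 0.06 in MDAH-2774 and 0.22 ± 0.06 in OVSAHO. The endothelial cadherin CDH5 rose from 1.62 ± 0.304 to 12.9 ± 1.52 CPM in MDAH-2774 and from 0.130 ± 0.166 to 1.56 ± 0.391 CPM in OVSAHO, and the lysosomal and macrophage marker CD68 fell from 26.3 ± 2.60 to 9.55 ± 0.858 CPM and from 14.7 ± 0.535 to 10.6 ± 1.86 CPM. With a mean RPKM of 3.36 in treated MDAH-2774 and at most 0.41 in the other groups, CDH5 is listed only through that group. The part of the markers above in the changes of carriers was not tested.

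SLC7A5 had 856, 983 and 1063 CPM with vehicle and 1495, 1512 and 1437 CPM with lestaurtinib, so every treated library lay above every vehicle library. The log2 change was 0.61 ± 0.08 (adjusted p = 5e-05). SLC3A2 went from 373, 355 and 380 CPM to 530, 532 and 522 CPM, again without overlap, a log2 change of 0.51 ± 0.07 (adjusted p = 9.9e-05). The other light chain SLC7A11 did not pass, with a log2 change of -0.13 ± 0.17 from 136 ± 3.63 to 124 ± 6.23 CPM. SLC7A8 went from 0 in all 3 vehicle libraries to 0.454, 0.212 and 0.402 CPM, 54 counts in all, at least 15.2-fold higher but still far below the level in OVSAHO. SLC1A3 rose from 1.01, 0.901 and 1.38 CPM to 3.29, 3.35 and 2.64 CPM (log2 change 1.49 ± 0.18, adjusted p = 2.5e-05). The summed RPKM of the 29 amino acid carriers was 677 ± 44.9 with vehicle and 885 ± 22.9 with lestaurtinib. Most of that gain lay in SLC7A5 (193 to 242 RPKM with vehicle, 334 to 357 with drug) and SLC3A2 (130 to 137, then 193 to 199). The median log2 change over the 29 carriers was 0.08. Of the 29, 6 rose and 1 fell, against 8.08% and 9.05% of all genes tested. The fall was that of the lysosomal histidine and peptide carrier SLC15A4, by -0.50 ± 0.12, a call lost without treated replicate 1 (adjusted p = 0.0513). The rises of SLC1A4 and SLC38A1, neutral amino acid carriers, at 0.52 ± 0.16 and 0.15 ± 0.05, were lost without any of the 3 treated libraries, with adjusted p up to 0.12 and 0.13 over the alternatives. Vehicle libraries also mattered: the SLC1A4 call was lost without vehicle replicate 1 or 3 and the SLC38A1 call without vehicle replicate 2, and the latter also with RLE scaling and with the replicate block.

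**Figure D2:**
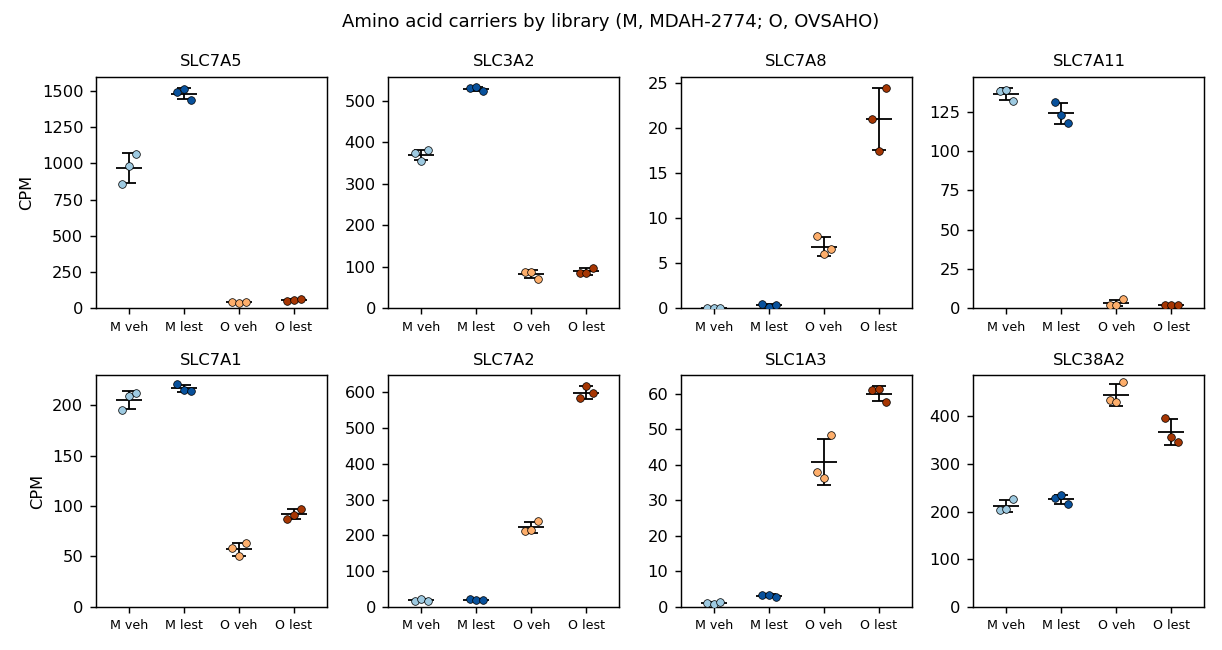
CPM of 8 amino acid carriers in each library (points), with the mean and SD of the 3 libraries of each group (bars); M is MDAH-2774, O is OVSAHO, veh is vehicle and lest is lestaurtinib, and each panel has its own y axis from 0. SLC7A5 and SLC3A2 are highest in treated MDAH-2774, and SLC7A2 is highest in treated OVSAHO at 583 to 617 CPM.

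Among the sugar and lactate carriers of MDAH-2774, SLC16A3 and SLC2A1 fell and SLC2A11 and SLC37A3 rose. SLC16A3 had 91.2, 107 and 116 CPM with vehicle and 77.1, 79.2 and 71.4 CPM with lestaurtinib, without overlap, a log2 change of -0.46 ± 0.10 (adjusted p = 0.0039). SLC2A1 went from 199, 187 and 208 CPM to 173, 177 and 179 CPM, a log2 change of -0.17 ± 0.05 (adjusted p = 0.041). That call was lost without treated replicate 1, 2 or 3 or vehicle replicate 1 or 3, with the replicate block and with upper-quartile scaling, with adjusted p up to 0.15. SLC2A11, a sugar carrier of the fructose-linked branch, rose by 0.66 ± 0.15 (adjusted p = 0.0047). SLC37A3 rose by 0.28 ± 0.08, a call lost without treated replicate 1 or 2 or vehicle replicate 2 (adjusted p up to 0.077). SLC16A1 stayed without a call, at a log2 change of 0.05 ± 0.06.

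Metal carriers gave 4 rises and 3 falls among 25 members, against 8.08% and 9.05% of all genes tested. SLC48A1 (chromosome 12, 47753842 to 47782753), which moves haem out of endosomes and lysosomes, went from 85.9, 85.7 and 86.9 CPM to 129, 131 and 129 CPM, a log2 change of 0.59 ± 0.06 (adjusted p = 1.4e-06). The zinc importer SLC39A10 rose by 0.46 ± 0.08 and the zinc exporters SLC30A1 and SLC30A4 by 0.52 ± 0.15 and 0.86 ± 0.26. The SLC30A1 call was lost without treated replicate 1, 2 or 3 or vehicle replicate 1 or 2 (adjusted p up to 0.12). The SLC30A4 call was lost without treated replicate 1, 2 or 3 or vehicle replicate 2 or 3, and with the replicate block (adjusted p up to 0.098). SLC30A4 had 1.27 to 1.33 RPKM in treated MDAH-2774 and at most 0.773 RPKM elsewhere, so it is listed only through that group. SLC39A14 (chromosome 8, 22367249 to 22434129), an importer of zinc, iron and manganese, went from 347, 333 and 336 CPM down to 280, 270 and 282 CPM, a log2 change of -0.29 ± 0.04 (adjusted p = 0.00016). The iron importer SLC11A2 fell by 0.35 ± 0.07 (adjusted p = 0.0013). SLC41A2 fell by 0.43 ± 0.11, a call lost without treated replicate 1 (adjusted p = 0.072) or treated replicate 2 (adjusted p = 0.064).

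Among carriers of phosphate, ions and osmolytes, SLC20A1 (chromosome 2, 112645857 to 112663825), the sodium-phosphate importer found in most cells, went from 139, 108 and 121 CPM to 81.3, 75.1 and 89.2 CPM, a log2 change of -0.59 ± 0.09 (adjusted p = 0.00024). The sulfate carrier SLC26A2 rose by 0.33 ± 0.06 (adjusted p = 0.0015). SLC6A6 went from 334, 309 and 319 CPM to 259, 237 and 253 CPM, a log2 change of -0.36 ± 0.07 (adjusted p = 0.0011), without overlap. SLC8A1 rose from a low level, 5.26, 3.86 and 3.98 CPM, to 7.84, 7.63 and 8.21 CPM (log2 change 0.85 ± 0.11, adjusted p = 3.2e-05), and the sodium-proton exchanger SLC9A2 by 0.70 ± 0.15. The sodium-bicarbonate carrier SLC4A7 fell by 0.30 ± 0.08, a call lost without treated replicate 2 or 3 (adjusted p = 0.081 in each case) or vehicle replicate 1 (adjusted p = 0.055). Besides SLC2A1, the falls lost under more than 5 of 14 alternatives were those of the nucleoside carrier SLC29A1 (-0.19 ± 0.06), the nucleobase carrier SLC43A3 (-0.75 ± 0.25) and the mitochondrial sodium-calcium exchanger SLC8B1 (-0.34 ± 0.11). For each of them the call was lost without treated replicate 1 or 2 and without vehicle replicate 2, for SLC29A1 and SLC8B1 also without treated replicate 3 or vehicle replicate 3, and for SLC29A1 and SLC43A3 also without vehicle replicate 1. All 3 calls were also lost with upper-quartile scaling, those of SLC43A3 and SLC8B1 with the replicate block, that of SLC43A3 in limma-voom and in the fit of MDAH-2774 alone, and that of SLC8B1 without the low-count filter. Over all alternatives the adjusted p reached 0.12, 0.40 and 0.21.

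In OVSAHO, lestaurtinib raised the cationic amino acid carriers SLC7A2 and SLC7A1, the light chain SLC7A8 and 5 zinc carriers of family SLC39, and lowered SLC26A7, SLC29A3, SLC34A2 and SLC38A2. Of the 177 members 42 (23.7%) passed, 25 higher and 17 lower. Over all genes tested 15.7% passed, 9.19% higher and 6.54% lower. The median log2 change was 0.04 over members and 0 over all genes, and treated and vehicle libraries did not overlap for 63 members (35.6%), against 30.5% of all genes. A log2 change of at least 1 was reached by 3 of the 25 rises and 5 of the 17 falls, against 1.34% and 1.12% of all genes. SLC14A2, among the 3 rises, is listed only because its RPKM passed 1 in treated OVSAHO.

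SLC7A2 (chromosome 8, 17497088 to 17570568) had 212, 214 and 240 CPM with vehicle and 583, 617 and 598 CPM with lestaurtinib, far apart in every library. The log2 change was 1.43 ± 0.07 (adjusted p = 9.9e-10). SLC7A1 went from 58.3, 50 and 62.9 CPM to 87.1, 91.1 and 97.5 CPM, a log2 change of 0.69 ± 0.07 (adjusted p = 6.1e-06). SLC7A8 went from 7.98, 5.99 and 6.59 CPM to 21.0, 17.5 and 24.4 CPM, a log2 change of 1.61 ± 0.24 (adjusted p = 0.00032). Of the 7 members of family SLC7, 5 rose and 1 fell, against 9.19% and 6.54% of all genes tested. The others to rise were SLC7A5, from 43.5 ± 3.75 to 57.9 ± 6.33 CPM (0.41 ± 0.09, adjusted p = 0.0031), and SLC7A6, a light chain that exchanges cationic for neutral amino acids, by 0.26 ± 0.08. The SLC7A6 call was lost without treated replicate 1, 2 or 3 or vehicle replicate 1 or 3, with upper-quartile scaling, with the replicate block and without the low-count filter (adjusted p up to 0.18). SLC7A6 shares 10.4% of its exon bases with SLC7A6OS on the other strand, and no source used here states whether counting was by strand. The falling member was SLC7A7, the sister light chain of SLC7A6, at -1.95 ± 0.53, but its values of 1.17, 0.317 and 1.48 CPM with vehicle and 0.389, 0.293 and 0.103 CPM with drug overlapped. Its call was lost without treated or vehicle replicate 3, in limma-voom and in the fit of OVSAHO alone (adjusted p up to 0.16). The heavy chain SLC3A2 did not pass, at 82.3 ± 9.39 and 88.9 ± 7.52 CPM (log2 change 0.11 ± 0.07, adjusted p = 0.34).

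Other amino acid carriers of OVSAHO moved in both directions. SLC1A3 rose from 37.9, 36.3 and 48.3 CPM to 60.9, 61.4 and 57.6 CPM, a log2 change of 0.55 ± 0.13 (adjusted p = 0.0071). SLC38A2 (chromosome 12, 46358188 to 46372862) fell from 434, 429 and 472 CPM to 397, 356 and 347 CPM, a log2 change of -0.28 ± 0.06 (adjusted p = 0.005). SLC6A15 fell by 0.32 ± 0.08, which did not pass in limma-voom or in the fit of OVSAHO alone (adjusted p up to 0.098). SLC38A10, an amino acid carrier of the same family as SLC38A2, rose by 0.54 ± 0.14, a call lost without treated replicate 3 (adjusted p = 0.066) or vehicle replicate 2 (adjusted p = 0.062). Over the 29 carriers, 7 rose and 3 fell, against 9.19% and 6.54% of all genes tested. The summed RPKM was 301 ± 10.9 with vehicle and 343 ± 3.79 with lestaurtinib. SLC7A2 alone, at 25.2 to 28.6 RPKM with vehicle and 67.9 to 72.6 with drug, gained about as much. The median log2 change over the 29 was 0.09.

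Metal carriers rose in OVSAHO mainly within family SLC39, which brings zinc and other metals into the cytosol. Of its 11 members 5 rose, against 9.19% of all genes tested. At baseline 8 of the 11 differed between the lines, near the share of 77.4% of all genes tested. SLC39A1 went from 210, 190 and 181 CPM to 261, 247 and 257 CPM (0.40 ± 0.06, adjusted p = 0.00011). SLC39A14 went from 404, 394 and 404 CPM to 470, 470 and 460 CPM (0.22 ± 0.04, adjusted p = 0.0016). SLC39A7, which releases zinc from the endoplasmic reticulum, rose by 0.24 ± 0.05, and SLC39A13, which releases it from vesicles, by 0.45 ± 0.10. SLC39A3, a zinc importer of the cell surface, rose by 0.66 ± 0.16, a call lost without vehicle replicate 3 (adjusted p = 0.0519). The metal carrier that fell was SLC48A1, from 111, 102 and 103 CPM to 82.3, 79.4 and 80.8 CPM (-0.38 ± 0.06, adjusted p = 0.00014). SLC48A1 shares 3.19% of its exon bases with RAPGEF3, and SLC39A1 shares 3.26% with CREB3L4, each on the other strand.

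**Figure D3:**
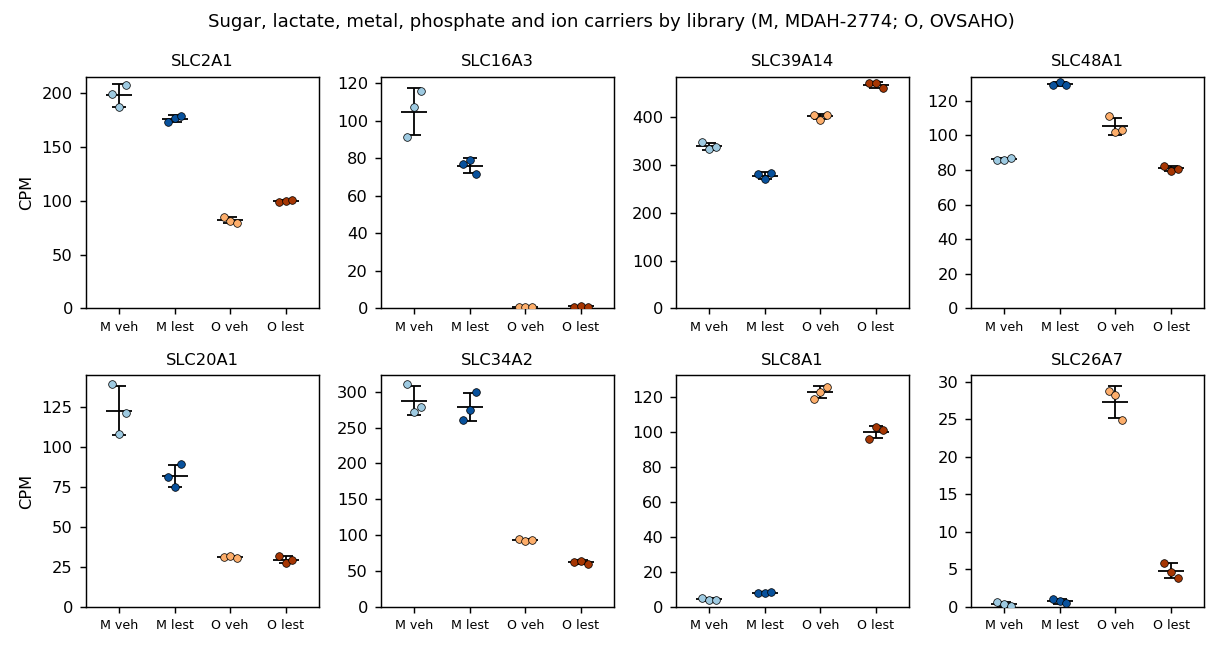
CPM of 8 carriers of sugar, lactate, metals, phosphate and ions in each library (points), with the mean and SD of the 3 libraries of each group (bars); M is MDAH-2774, O is OVSAHO, veh is vehicle and lest is lestaurtinib, and each panel has its own y axis from 0. SLC48A1 is higher with drug in MDAH-2774 and lower in OVSAHO, SLC39A14 and SLC2A1 have the reverse order, and SLC26A7 falls to 3.89 to 5.87 CPM in treated OVSAHO.

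For the ion and phosphate carriers of OVSAHO the test gave more falls than rises. SLC26A7 fell from 28.8, 28.2 and 24.9 CPM to 5.87, 4.65 and 3.89 CPM, a log2 change of -2.51 ± 0.32 (adjusted p = 4.2e-05). SLC34A2 (chromosome 4, 25655813 to 25678748), the epithelial sodium-phosphate importer, went from 94.1, 92.0 and 92.7 CPM to 62.6, 64.5 and 59.0 CPM (-0.58 ± 0.07, adjusted p = 8.1e-06). SLC8A1 went from 119, 123 and 126 CPM to 95.9, 103 and 101 CPM (-0.29 ± 0.09, adjusted p = 0.027), but the call was lost without treated replicate 1 (adjusted p = 0.072), vehicle replicate 2 (0.066) or vehicle replicate 3 (0.056), and with the replicate block (0.0503).

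SLC2A1 rose in OVSAHO, from 84.8, 81.5 and 79.7 CPM to 98.7, 99.5 and 101 CPM (0.28 ± 0.05, adjusted p = 0.0019). SLC2A6, a hexose carrier of lysosomes, rose by 0.85 ± 0.18 (adjusted p = 0.0034). SLC2A12 fell by 0.70 ± 0.18, a call lost without vehicle replicate 1 (adjusted p = 0.058). The lysosomal nucleoside carrier SLC29A3 (chromosome 10, 71319253 to 71363396) fell from 35.9, 38.4 and 37.8 CPM to 16.2, 20.4 and 16.1 CPM, a log2 change of -1.09 ± 0.14 (adjusted p = 5.5e-05). The urea carrier SLC14A2 (chromosome 18, 45212957 to 45683107) rose from 1.47, 2.27 and 2.69 CPM to 15.1, 11.3 and 11.2 CPM, a log2 change of 2.56 ± 0.36 (adjusted p = 0.00016). In MDAH-2774 SLC14A2 had 1 count over the 6 libraries. In OVSAHO it had 0.301 to 0.55 RPKM with vehicle and 2.25 to 3.02 RPKM with drug. It is thus listed only through the group where it was high. SLC12A8, of debated substrate, fell from 1.93, 2.10 and 2.13 CPM to 0.584, 0.878 and 0.438 CPM (-1.71 ± 0.25), and the orphan SLC35F5 from 73.4, 67.1 and 87.7 CPM to 38.1, 41.2 and 38.7 CPM (-0.95 ± 0.10, adjusted p = 4.4e-06). SLC22A18, an organic cation carrier, fell by 1.56 ± 0.32. SLC35B1, which brings ATP into the endoplasmic reticulum, rose by 0.46 ± 0.10, and SLC33A1, the acetyl-CoA carrier of that membrane, by 0.42 ± 0.10. The riboflavin carrier SLC52A2 rose by 0.59 ± 0.19, a call lost with DESeq2 and without treated replicate 3 or vehicle replicate 2 or 3 (adjusted p up to 0.25).

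**Figure D4:**
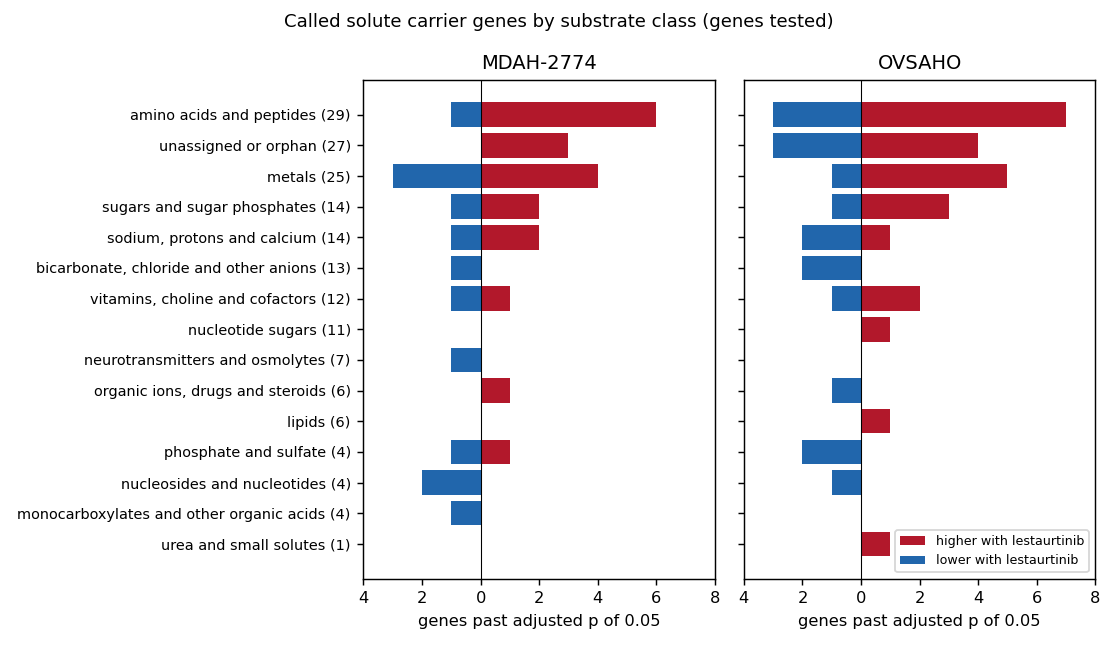
Number of solute carrier genes past an adjusted p of 0.05 by substrate class, with the number tested in brackets, for MDAH-2774 (left) and OVSAHO (right); bars to the right are genes higher with lestaurtinib and bars to the left genes lower. The amino acid and peptide carriers, the largest class, hold the most rises, 6 of 29 in MDAH-2774 and 7 of 29 in OVSAHO. Of all genes tested 8.08% rose in MDAH-2774 and 9.19% in OVSAHO.

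Set side by side, 10 members were called in both lines (5.65%, against 4.5% of all genes tested). Calls in the same direction were made for 6 members (3.39%, against 2.61% of all genes tested). SLC1A3, SLC7A5, SLC7A8, SLC16A4 and SLC45A4 rose in both lines, and SLC44A2 fell in both. SLC45A4, a sugar carrier homologue of unsettled substrate, rose by 0.78 ± 0.17 in MDAH-2774 and 0.66 ± 0.15 in OVSAHO. The orphan SLC16A4 rose by 0.74 ± 0.21 and 0.88 ± 0.23, the former call being lost without treated or vehicle replicate 1 or 2 (adjusted p up to 0.11), and the latter in limma-voom and in the fit of OVSAHO alone (adjusted p up to 0.083). SLC44A2, a choline transporter-like protein, fell by 0.41 ± 0.09 and -0.36 ± 0.09, the OVSAHO call being lost without vehicle replicate 2 (adjusted p = 0.055). Calls in opposite directions were made for 4 members (2.26%), near the 1.9% of all genes tested. SLC8A1 and SLC48A1 rose in MDAH-2774 and fell in OVSAHO, and SLC2A1 and SLC39A14 did the reverse. The limits on the SLC8A1 call in OVSAHO and the SLC2A1 call in MDAH-2774 are given above. A further 23 members were called in MDAH-2774 alone and 32 in OVSAHO alone, and 112 in neither. Calls in 1 line alone made up 31.1% of members, against 23.9% of all genes tested.

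**Figure D5:**
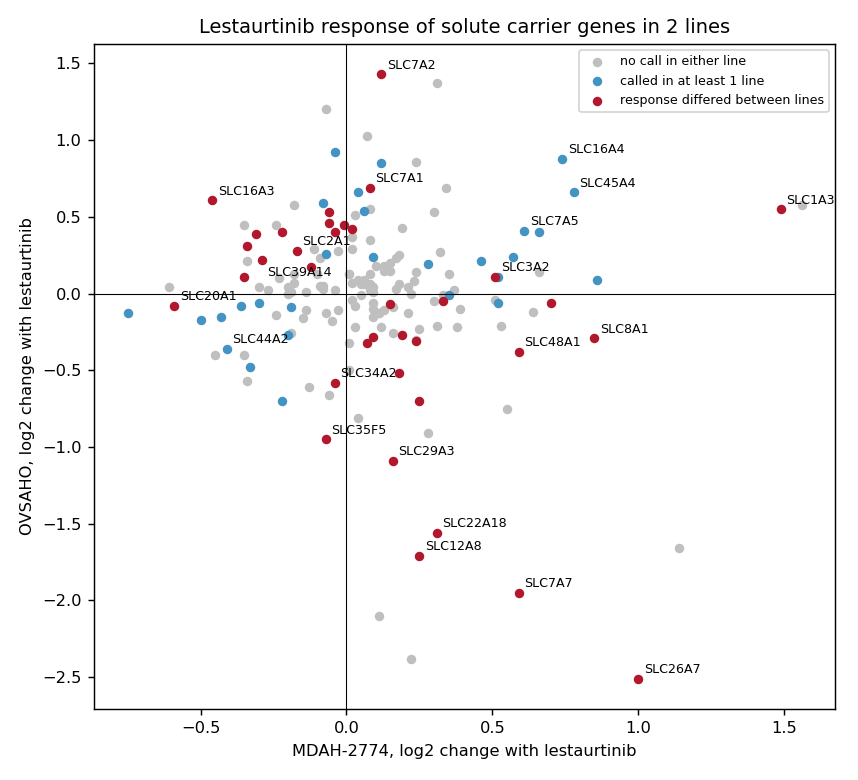
Log2 change with lestaurtinib in MDAH-2774 (x axis) and OVSAHO (y axis) for 172 solute carrier genes, 5 with a group at 0 counts being left out. Grey points were called in neither line, blue points in at least 1 line, and red points had a response that differed between lines by the test of the difference; SLC48A1 and SLC8A1 lie at the lower right and SLC7A2 at the top.

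The difference of the responses was tested directly, as the change in OVSAHO minus the change in MDAH-2774. It passed for 38 members (21.5%), 16 higher and 22 lower, against 16.8% of all genes, 9.22% higher and 7.59% lower. A difference of at least 1 on the log2 scale was passed by 10 members, 2 higher and 8 lower, against 3.71% of all genes, 1.59% higher and 2.12% lower. SLC48A1 differed by -0.97 ± 0.08 (adjusted p = 3.9e-07), SLC39A14 by 0.51 ± 0.06 (adjusted p = 2.1e-05) and SLC2A1 by 0.45 ± 0.08 (adjusted p = 0.00073). The cationic amino acid carriers responded more in OVSAHO, SLC7A2 by 1.31 ± 0.11 (adjusted p = 5.1e-07) and SLC7A1 by 0.61 ± 0.10 (adjusted p = 0.00066), their MDAH-2774 log2 changes being 0.12 ± 0.08 and 0.08 ± 0.07. The heavy chain SLC3A2 responded more in MDAH-2774, by -0.40 ± 0.10 (adjusted p = 0.013), whereas the difference for its partner SLC7A5 was -0.20 ± 0.12 and did not pass (adjusted p = 0.27). For SLC34A2 the difference was -0.54 ± 0.09 (adjusted p = 0.00061) and for SLC20A1 0.51 ± 0.13 (adjusted p = 0.014). SLC26A7 differed by -3.51 ± 0.54, with MDAH-2774 near 0 throughout.

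Proteins that assemble with carriers or set their gradients were read from a list of 20 genes, 16 of them in the table. In MDAH-2774 1 rose and 3 fell, and in OVSAHO 2 rose and 3 fell. Over all genes tested 8.08% rose and 9.05% fell in MDAH-2774, and 9.19% rose and 6.54% fell in OVSAHO. ATP1B1, a chain of the sodium pump whose gradient drives sodium-coupled carriers, went from 169 ± 1.85 to 128 ± 4.50 CPM in MDAH-2774, a log2 change of -0.40 ± 0.06. XPR1, the phosphate exporter, fell in both lines, by -0.25 ± 0.08 in MDAH-2774 and -0.51 ± 0.08 in OVSAHO. TXNIP, which takes glucose carriers off the cell surface, fell in OVSAHO from 226 ± 13.3 to 126 ± 3.35 CPM (-0.85 ± 0.05, adjusted p = 1.3e-08) and had a log2 change of 0.15 ± 0.05 in MDAH-2774 (adjusted p = 0.062). PDZK1, a scaffold of epithelial carriers, rose in MDAH-2774 from 1.23 ± 0.169 to 6.06 ± 0.459 CPM. Its mean RPKM was 2.23 in treated MDAH-2774 and at most 0.944 in the other groups. The related scaffold NHERF1 rose in OVSAHO by 0.39 ± 0.10. BSG, the chaperone of SLC16A1 and SLC16A3, did not pass in either line.

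A further list of 15 genes held regulators of carrier genes and the metallothioneins MT1X, MT2A and MT1E, which bind metals. Of the 15, 3 rose and 1 fell in MDAH-2774, and 3 rose in OVSAHO. Over all genes tested 8.08% rose and 9.05% fell in MDAH-2774, and 9.19% rose in OVSAHO. EPAS1, a hypoxia-inducible factor, rose in both, from 1.76 ± 0.156 to 5.14 ± 0.467 CPM (1.54 ± 0.16) and from 15.7 ± 2.46 to 45.4 ± 2.75 CPM (1.53 ± 0.14). MYC rose by 0.39 ± 0.07 in MDAH-2774 and 0.26 ± 0.07 in OVSAHO. NFAT5, the osmotic stress factor, rose in OVSAHO by 0.36 ± 0.10, and TFEB, a lysosomal factor, fell in MDAH-2774 by 0.98 ± 0.26. MT1E, a zinc-binding metallothionein, rose in MDAH-2774 by 0.27 ± 0.08 and was at 0 in OVSAHO. ATF4, the factor of the amino acid response, had log2 changes of -0.06 ± 0.05 and 0.12 ± 0.05 and did not pass in either line, and neither did NFE2L2 or HIF1A.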

How the data were processed

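RNA from 12 libraries was analysed, grouped by sample title. Per the labels' protocols, a miRNeasy kit gave the total RNA and TruSeq stranded mRNA chemistry the libraries. Per the submitters' processing notes, reads were handled with STAR 2.7.3a and featureCounts, listed as version 2.8.2, on hg38. No strand setting is stated, so the 25 members that share exon bases with another listed gene are uncertain, and so are genes with near-identical copies, such as SLC7A5, SLC6A8 and SLC2A3. The deposited values are read counts (whole numbers, not normalized) and RPKM, both computed by the authors.

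The counts went into 1 edgeR 4.0.16 quasi-likelihood fit (limma 3.58.1, R 4.3.3) with TMM scaling, a term for each group and no block. After filterByExpr (minimum count 10), 13498 genes were tested and 371 were not. Adjusted p-values are Benjamini-Hochberg values over all genes tested, with a threshold of 0.05. "Rose", "fell", "higher" and "lower" mean past that threshold. RPKM was used to compare levels between genes, CPM elsewhere. A group at 0 was compared at a floor of 3 counts over the group, which covers counting error only. Libraries of a group differed by more than sampling noise (chi-square over degrees of freedom 5.69 to 27.69).

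Members were placed in substrate classes by family, with exceptions by gene, from general knowledge. The members and lists were chosen with earlier results of these data known. Named genes were the largest changes per comparison with a mean of at least 5 CPM, up to 3 members per class with the lowest adjusted p, the highest by RPKM, and a fixed list of well-known carriers. SLC7A6, SLC7A7, SLC22A31, SLC30A4 and SLC39A13 were named outside this rule after their values were seen. Some genes that the rule names are not reported here. The test was tried on simulated data. Alternatives were RLE and upper-quartile scaling, no filter, at least 1 CPM in 3 libraries, DESeq2 1.42.0, limma-voom, the replicate number as a block, only the groups compared, a log2 change of at least 1 and leaving out each library. Tables and plots were made with Python 3.11.15, pandas 2.3.3 and matplotlib 3.10.9.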

Additional observations from a re-analysis of the deposited data

Results flagged for a closer look

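The response to lestaurtinib differed between the lines, by edgeR's test of the difference (OVSAHO change minus MDAH-2774 change, log2), for 38 members. Given here are the largest of them, those called in opposite directions and those of the fixed list of carriers, with SLC34A2, also a phosphate importer. No group held more than 3 libraries, so single libraries were not tested as outliers. Amino acid carriers gave 6 of these differences: SLC7A2 at 1.31, SLC7A1 at 0.61, SLC38A2 at -0.37, SLC3A2 at -0.40, SLC1A3 at -0.94 and SLC7A8 at -5.33. The SLC7A8 value is a fitted one with MDAH-2774 vehicle at 0 counts, depends on the prior count and is no bound. In limma-voom the differences of SLC1A3, SLC7A8 and SLC16A3 did not pass (adjusted p = 0.19, 0.10 and 0.33).

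Sugar and lactate carriers gave SLC16A3 at 1.07, SLC2A1 at 0.45 and SLC2A12 at -0.95, the last lost in limma-voom, without treated MDAH-2774 replicate 3 and without vehicle OVSAHO replicate 1. SLC16A3 in OVSAHO stood at 0.770 ± 0.0555 CPM with vehicle and 1.19 ± 0.292 CPM with drug. Metal and haem carriers gave SLC39A14 at 0.51 and SLC48A1 at -0.97, and phosphate carriers SLC20A1 at 0.51 and SLC34A2 at -0.54. Ion carriers gave SLC8B1 at 0.66, SLC8A1 at -1.14 and SLC26A7 at -3.51.

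For nucleosides the difference was -1.25 for SLC29A3, and for fatty acids 0.62 for SLC27A4. SLC35B1 differed by 0.52, the orphan SLC10A3 by 0.59 and SLC12A8 by -1.96. The SLC10A3 difference was lost without treated MDAH-2774 replicate 3 (adjusted p = 0.0544).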

How the results depend on the processing

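No call of a named member changed direction under the alternatives tried. Requiring a log2 change of at least 1 as well left 3 members in MDAH-2774, 8 in OVSAHO, 88 at baseline and 10 for the difference of response. Leaving out 1 library at a time gave 19 to 31 members called in MDAH-2774, 32 to 44 in OVSAHO, 138 to 142 at baseline and 30 to 43 for the difference. With upper-quartile scaling the difference of response was higher for 13 and lower for 24 members. DESeq2 called 36, 46, 146 and 44 members, and limma-voom 38, 42, 148 and 35. Of the named calls, 18 of 33 in MDAH-2774, 25 of 41 in OVSAHO, 84 of 87 at baseline and 23 of 37 for the difference held under every alternative.

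The replicate numbers do not pair the samples, since same-numbered libraries had deviations correlated at -0.06 to 0.066. With the replicate number as a block, 28 members were called in MDAH-2774, 35 in OVSAHO, 140 at baseline and 32 for the difference. Depth limits members near 1 CPM, such as SLC7A7 in OVSAHO.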

Other observations

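The class of nucleotide sugar carriers, which supply the Golgi and endoplasmic reticulum with building blocks of glycans, was set by family and held 11 members. With drug 1 of them was called, SLC35B1, which rose in OVSAHO and is better known as the ATP carrier of the endoplasmic reticulum. Their summed RPKM was 135 ± 4.46 and 146 ± 0.0924 in vehicle and treated MDAH-2774 and 167 ± 5.37 and 173 ± 5.21 in OVSAHO. At baseline 5 of them were higher in OVSAHO and 1 lower. Of the 22 members of family SLC35, 10 were higher and 6 lower in OVSAHO. Over all genes tested 38.6% were higher and 38.9% lower.

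SLC22A31, an orphan named after its values were seen, had 0 counts in vehicle and 47 in treated MDAH-2774, at least 13.3-fold higher, with 398 counts in vehicle OVSAHO.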
